A study of Mus musculus with 6 samples.

Results

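Glutathione peroxidases are enzymes that reduce peroxides. Their genes were described here in the organ of Corti of mice that lack pejvakin. This strip of epithelium in the inner ear holds the sensory hair cells and the supporting cells around them. The 6 genes were Gpx1, Gpx2, Gpx3, Gpx4, Gpx7 and Gpx8. They were found by their gene symbols among the probe sets that carry a single symbol, and made up 6 of 19938 genes tested and 7 of 21789 such probe sets. Gpx4 had 2 probe sets and the other 5 genes had 1 each. The tested samples were homozygous for an inactivated Pjvk gene (Pjvk-/-) and the others carried both wild-type copies (Pjvk+/+). All came from mice at postnatal day 15 on the mixed background C57BL/6J-129/Sv, and no sample had a further allele or treatment in its labels. Each genotype had 3 arrays, which makes 6 in all. The labels give no number of animals per sample and do not say how the allele was made. The p-values therefore rest on the spread from sample to sample, part of which may be technical.

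Pejvakin belongs to the gasdermin proteins, and its loss makes mice and humans deaf. The study connects it with peroxisomes and with exposure to sound. Glutathione peroxidases take electrons from glutathione, or from other thiols, to turn hydrogen peroxide into water and lipid hydroperoxides into alcohols. GPX1, GPX2, GPX3 and GPX4 of the mouse carry selenocysteine at the active site and so depend on selenium, whereas GPX7 and GPX8 carry cysteine there and reside in the endoplasmic reticulum. Gpx1 has been studied in the cochlea because mice without it are more easily harmed by noise.

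The stretches upstream of Gpx2 and Gpx7 are shown because these genes gave the largest differences between the genotypes within the family, in opposite directions. They are the 250 bases before the annotated start from RefSeq on GRCm38.p6, written 5′ to 3′ along the gene, and capitals mark letters of a CCAAT box or of a GC box on either strand. Gpx2 is at chr12:76795555-76795804 on the minus strand and Gpx7 at chr4:108406714-108406963 on the minus strand.
Gpx2: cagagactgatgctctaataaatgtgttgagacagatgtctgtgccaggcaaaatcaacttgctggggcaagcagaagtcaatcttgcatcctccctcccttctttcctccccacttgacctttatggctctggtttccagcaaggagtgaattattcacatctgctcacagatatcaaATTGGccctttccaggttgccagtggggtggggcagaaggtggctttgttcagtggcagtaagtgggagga
Gpx7: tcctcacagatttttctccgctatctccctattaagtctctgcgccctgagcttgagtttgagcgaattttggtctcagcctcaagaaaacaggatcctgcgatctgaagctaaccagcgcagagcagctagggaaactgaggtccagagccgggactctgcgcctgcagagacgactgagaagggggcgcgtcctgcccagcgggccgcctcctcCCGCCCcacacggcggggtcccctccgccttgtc
The Gpx2 stretch held no CpG dinucleotide, like 7.87% of the 32851 windows of this length in the RefSeq table, whose median count was 6. The Gpx7 stretch held 16, and Gpx1, Gpx8 and Gpx3 held 7, 10 and 11. Gpx4 has 4 annotated starts, with 2 to 24. The motifs searched on both strands were the core of the antioxidant response element (TGACNNNGC), which NRF2 binds, the GC box (GGGCGG), the CCAAT box (CCAAT) and the TATA box (TATAAA). The antioxidant response element core and the TATA box were in none of the windows of the 6 genes, against 10.2% and 12.4% of all windows. The GC box was found at Gpx3, Gpx4 and Gpx7, against 32.7% of all windows, and the CCAAT box at Gpx2, Gpx3 and Gpx4, against 33.8%. The percentages count single windows, whereas Gpx4 was counted for a match in any of its 4, so the units are not alike. Its first window held no GC box and its last no CCAAT box. A match or its absence describes letters in this window only.

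The deposited values were log2 signals of 35557 probe sets, with array medians between 6.66 and 6.69. The arrays were compared without further normalization. Close medians do not show that brighter signals were level between the arrays, and values with quantile normalization are given at the end. Signals of different probe sets depend on the probes and are not set against each other. The Pjvk probe set read 4.42, 4.36 and 4.21 in Pjvk-/- samples and 4.75, 5.06 and 4.96 in Pjvk+/+ samples (log2 signal), and where its probes lie in the gene is not known here. The defining hair cell gene Myo7a averaged 7.90 in Pjvk-/- and 7.93 in Pjvk+/+ samples and the supporting cell gene Gjb2 11.02 in Pjvk-/- and 11.06 in Pjvk+/+ samples, so both markers of the labelled tissue were present. Genes of other cells gave signals too. The fibrocyte gene Coch averaged 12.54 in Pjvk-/- and 12.65 in Pjvk+/+ samples. The neuron gene Nefh had 12.04 and 12.02, and the bone gene Col1a1 10.78 and 10.37, in the same order. The values below are therefore not those of the sensory epithelium alone. The genotypes were compared with limma over all genes, and calls were made at a Benjamini-Hochberg adjusted p below 0.05. Pjvk itself was not called (difference -0.59, adjusted p = 0.105 in limma), and its signal lay at percentile 11.3 of the tested genes.

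No glutathione peroxidase was called, against 0.0351% of all genes (7 genes, all lower in Pjvk-/-). Without adjustment, 2 of the 6 genes had a limma p under 0.05, Gpx2 on the lower side and Gpx7 on the higher side, against 12.4% of all genes. The mean was lower in Pjvk-/- samples for 4 genes and higher for 2. Their median difference was -0.04 on the log2 scale, where all genes had -0.01. Genes at or above the median level, among them 5 of the 6 members, had a median of -0.0433. All 3 Pjvk-/- values lay apart from all 3 Pjvk+/+ values for 1 of the 6 genes, Gpx7, against 17.8% of all genes. Its direction, higher in Pjvk-/-, was that of 6.59% of all genes. With 3 arrays against 3, the exact two-sided permutation test cannot go below p = 0.1.

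**Figure D1:**
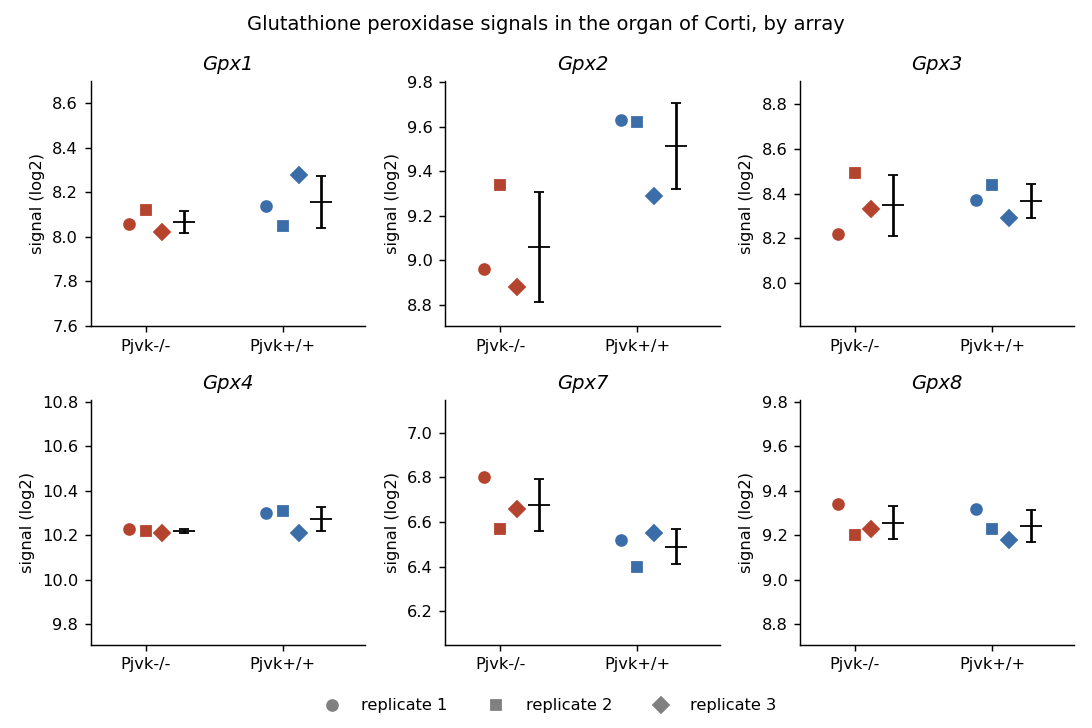
Log2 signal of each glutathione peroxidase gene in every array (vertical axes, each spanning the same number of log2 units), with Pjvk-/- samples in red and Pjvk+/+ samples in blue; the bar beside each group is the mean ± SD of 3 arrays. Gpx2 spreads over 0.75 log2 units and Gpx4 over 0.10, and Gpx7 is the gene whose groups do not overlap.

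Gpx2, the selenium-dependent enzyme best known from the epithelium of the gut and a known target of NRF2, had the largest difference of the family. Its log2 signal was 8.96, 9.34 and 8.88 in Pjvk-/- samples, against 9.63, 9.62 and 9.29 in Pjvk+/+ samples. Replicate 2 of Pjvk-/- lay above replicate 3 of Pjvk+/+, so the groups overlapped in that 1 pair. The means were 9.06 ± 0.25 in Pjvk-/- and 9.51 ± 0.19 in Pjvk+/+ samples (SD, n = 3 each). They differed by -0.45 (standard error, SE, 0.13), which is 0.73-fold, with a 95% interval from -0.76 to -0.15. In limma the adjusted p was 0.276 and the unadjusted p 0.00831, and the exact permutation test gave p = 0.2. The spread of Gpx2 within a genotype was wide, with a pooled SD of 0.22 that lay at percentile 97.7 of all genes. The difference ran from -0.59 without replicate 2 of Pjvk-/- to -0.36 without replicate 3 of Pjvk-/-.

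Y-linked signals differed in the same direction as Gpx2. All 3 measured ones, Eif2s3y, Kdm5d and Uty, had lower means in Pjvk-/- samples, and their mean log2 signal was 7.39 to 7.58 in Pjvk-/- and 7.65 to 8.05 in Pjvk+/+ samples. With this level as a covariate, the Gpx2 difference was -0.15 (SE 0.20, adjusted p = 0.966 in limma). The covariate did not overlap between the genotypes, so the share of each in the difference cannot be told apart.

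Gpx1, the main peroxidase of the cytosol, which also occurs in mitochondria, read 8.06, 8.12 and 8.02 in Pjvk-/- samples, against 8.14, 8.05 and 8.28 in Pjvk+/+ samples (log2 signal). Replicate 2 of Pjvk+/+ lay among the Pjvk-/- values. The difference was -0.09 (SE 0.07, 95% interval -0.25 to 0.07), or 0.94-fold with an interval of 0.84 to 1.05, and it did not pass (adjusted p = 0.606 in limma, exact permutation p = 0.3). Without replicate 3 of Pjvk+/+ it was -0.03, and -0.18 once the Y-linked level was a covariate.

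Gpx3, the secreted enzyme of blood plasma, read 8.22, 8.49 and 8.33 in Pjvk-/- samples, against 8.37, 8.44 and 8.29 in Pjvk+/+ samples. The Pjvk-/- values held both the lowest and the highest of the 6 arrays. The difference was -0.02 (SE 0.08, 95% interval -0.20 to 0.16; adjusted p = 0.934 in limma, exact permutation p = 0.9), and its sign changed with the array left out, from -0.09 without replicate 2 of Pjvk-/- to 0.04 without replicate 1 of Pjvk-/-. These values show no difference beyond the spread of the arrays, and the interval leaves room for 0.871-fold to 1.12-fold.

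Gpx4 encodes the enzyme that reduces phospholipid hydroperoxides inside membranes and holds back ferroptosis, the cell death driven by lipid peroxidation. Its first probe set (10363000) read 10.23, 10.22 and 10.21 in Pjvk-/- samples, against 10.30, 10.31 and 10.21 in Pjvk+/+ samples. Replicate 3 of both genotypes had the same value, so the groups touched. The second probe set (10364675) read 9.74, 9.78 and 9.74 in Pjvk-/- samples, against 9.84, 9.86 and 9.79 in Pjvk+/+ samples, with no overlap. The differences were -0.05 (SE 0.05, 95% interval -0.18 to 0.07; adjusted p = 0.699) and -0.08 (SE 0.05, 95% interval -0.20 to 0.04; adjusted p = 0.56 in limma over all probe sets). Neither passed, and the exact permutation tests gave p = 0.4 and p = 0.1. The pooled SD of the first probe set within a genotype was 0.04, at percentile 9.4 of all genes, so Gpx4 was the steadiest of the 6 genes in these arrays, and its interval ran from 0.884-fold to 1.05-fold. The genome holds Gpx4 pseudogenes, and how far their transcripts add to these signals was not assessed.

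Gpx7 was the gene of the family with a higher level in every Pjvk-/- sample. GPX7 passes the oxidizing power of peroxide to protein disulfide isomerases, which form disulfide bonds in new proteins. It read 6.80, 6.57 and 6.66 in Pjvk-/- samples, against 6.52, 6.40 and 6.55 in Pjvk+/+ samples (log2 signal). The lowest Pjvk-/- value, 6.57, and the highest Pjvk+/+ value, 6.55, lay close together. The means were 6.68 ± 0.12 in Pjvk-/- and 6.49 ± 0.08 in Pjvk+/+ samples (SD, n = 3 each). The difference was 0.19 (SE 0.07, 95% interval 0.02 to 0.36), or 1.14-fold, with an unadjusted p of 0.0349 and an adjusted p of 0.37 in limma. The exact permutation test gave p = 0.1, the smallest possible here. The signal was at percentile 40.7 of the tested genes, while the other 5 genes lay at percentiles from 70.9 to 97.3. The difference lay between 0.12 and 0.24 over 14 alternatives. As the groups do not overlap, leaving out 1 array could not turn its sign. With 1 probe set, the filter, the probe set treatments, the intensity trend and the replicate block could not move it. It was 0.16 with quantile normalization, 0.20 with centring on array medians and 0.20 with the Y-linked covariate.

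Gpx8, the membrane-bound relative of Gpx7 in the endoplasmic reticulum, read 9.34, 9.20 and 9.23 in Pjvk-/- samples, against 9.32, 9.23 and 9.18 in Pjvk+/+ samples. The groups overlapped almost wholly. The difference was 0.01 (SE 0.06, 95% interval -0.13 to 0.16; adjusted p = 0.947 in limma, exact permutation p = 0.8). It was -0.03 without replicate 1 of Pjvk-/- and -0.02 without replicate 3 of Pjvk+/+, and 0.15 with the Y-linked covariate.

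**Figure D2:**
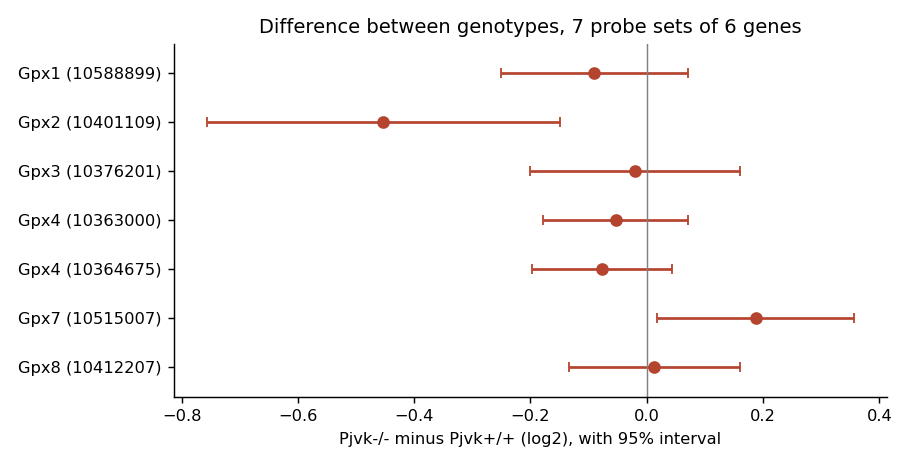
Difference of Pjvk-/- minus Pjvk+/+ samples in log2 signal (horizontal axis) for each of the 7 probe sets, named by gene and probe set on the vertical axis; points are limma estimates over all probe sets and bars their 95% intervals. The intervals of Gpx2 and Gpx7 do not include 0 before adjustment, on opposite sides, and the 5 other probe sets lie between -0.09 and 0.01.

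**Figure D3:**
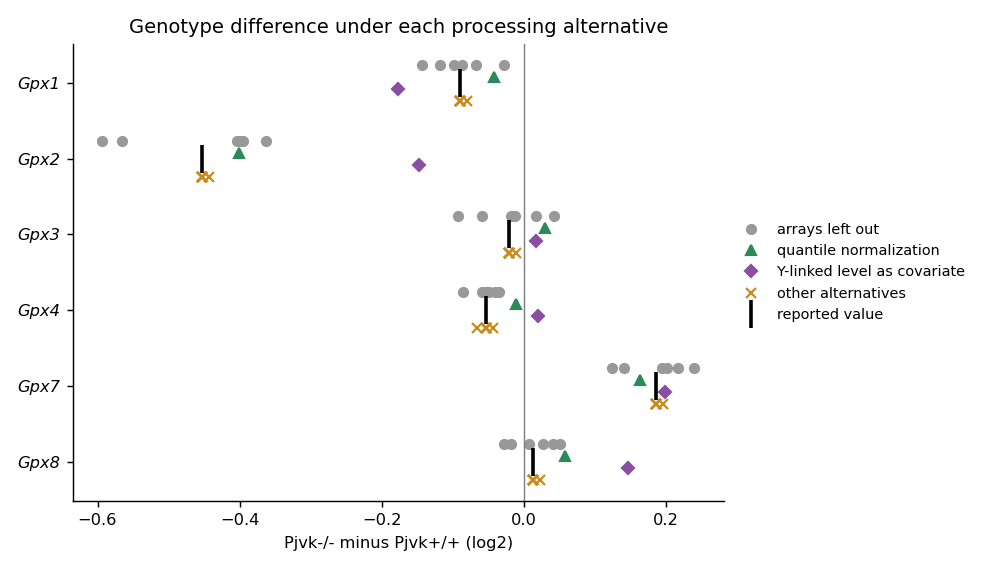
Difference of Pjvk-/- minus Pjvk+/+ samples in log2 signal (horizontal axis) for each gene (vertical axis) under the 15 processing alternatives (14 for Gpx7); the black bar is the reported value. Gpx2 lies below 0 throughout, from -0.59 to -0.15, Gpx7 above 0 throughout, and Gpx3, Gpx4 and Gpx8 lie on both sides of 0. The filters, the intensity trend, the replicate block and the fit of all probe sets cannot move a point from the reported value.

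None of the 6 genes lies on chromosome 2, which carries Pjvk, so none is a neighbour of the altered locus. Markers of other cochlear cells differed between the same arrays, and their part in the values above was not tested. Melanocyte markers of the stria vascularis had a mean log2 signal of 6.75 to 6.87 in Pjvk-/- and 7.01 to 7.17 in Pjvk+/+ samples. Their median difference was only -0.07, with 6 of 10 lower and 4 higher, and 1 gene carried most of the gap between the means. Dct, the dopachrome tautomerase of melanin synthesis, was called (difference -1.86, adjusted p = 0.0115 in limma), and without it the mean of the other 9 was 6.80 to 6.87 in Pjvk-/- and 6.86 to 6.98 in Pjvk+/+ samples, so that the genotypes overlapped. That mean without Dct was added after the values were seen. Markers of marginal cells, the secretory cells of the stria, were lower in 4 of 5 measured genes, with means of 7.90 to 8.01 in Pjvk-/- and 8.10 to 8.28 in Pjvk+/+ samples. Blood vessel markers were lower in 11 of 12, with means of 8.05 to 8.20 in Pjvk-/- and 8.26 to 8.28 in Pjvk+/+ samples. Spiral ligament fibrocyte markers were lower in 6 of 7, with overlapping means of 9.67 to 9.86 in Pjvk-/- and 9.85 to 9.91 in Pjvk+/+ samples. Supporting cell markers lay the other way in 10 of 15, with means of 8.90 to 8.96 in Pjvk-/- and 8.81 to 8.87 in Pjvk+/+ samples. Skeletal muscle markers were higher in 11 of 13, hair cell markers in 9 of 15 and bone and cartilage markers in 6 of 7 measured genes. Their means overlapped or touched between the genotypes, at 6.62 to 6.84 in Pjvk-/- and 6.53 to 6.62 in Pjvk+/+ samples for muscle, 7.40 to 7.48 in Pjvk-/- and 7.36 to 7.41 in Pjvk+/+ samples for hair cells, and 9.29 to 9.75 in Pjvk-/- and 9.26 to 9.45 in Pjvk+/+ samples for bone and cartilage. At an unadjusted limma p under 0.05 were 6 muscle, 3 hair cell, 3 supporting cell and 1 bone marker on the higher side (5.74% of all genes). On the lower side (6.66% of all genes) were 4 blood vessel, 3 marginal cell, 3 melanocyte, 2 supporting cell, 1 fibrocyte and 1 red blood cell marker. Means of macrophage, neuron, myelinating glia and red blood cell markers overlapped between the genotypes. Of all genes, 53.8% had lower and 44.9% higher means in Pjvk-/- samples. In whole tissue, fewer cells of a type and less RNA per cell cannot be told apart.

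Genes around the family were read from lists chosen by function. Of 25 measured genes that supply and recycle glutathione, none was called, 16 were lower, 7 higher and 2 equal in Pjvk-/- samples, and the median difference was -0.06. Over all genes, 53.8% were lower and 44.9% higher. The median difference was -0.01 over all genes and -0.0433 over genes at or above the median level. At an unadjusted limma p under 0.05 were 1 on the lower side (6.66% of all genes) and 2 on the higher side (5.74%). Of the 25, 7 genes had every Pjvk-/- value below every Pjvk+/+ value (11.3% of all genes), among them Ggct and Gclm. Another 2, Slc7a11 and Ggt6, had every value above (6.59% of all genes). Slc7a11, which imports the cystine from which glutathione is made, read 9.88, 9.68 and 9.80 in Pjvk-/- samples, against 9.61, 9.57 and 9.46 in Pjvk+/+ samples. Its difference was 0.24 (SE 0.07, adjusted p = 0.278). Ggct, a gamma-glutamylcyclotransferase of the glutathione cycle, had -0.23 (SE 0.06, adjusted p = 0.273), and Ggt6, a gamma-glutamyltransferase relative, 0.22 (SE 0.08, adjusted p = 0.334). The subunits of glutamate-cysteine ligase, the first step of glutathione synthesis, had 0.03 for Gclc (adjusted p = 0.839) and -0.12 for Gclm (adjusted p = 0.412). Gsr, which reduces oxidized glutathione again, had -0.13 (SE 0.07, adjusted p = 0.477).

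Some proteins of the family need selenocysteine, so the other genes of selenium use were read as well. None of 20 other selenoprotein genes was called, 16 were lower and 4 higher, the median was -0.04, and 2 had an unadjusted limma p under 0.05, both lower, near the 6.66% of all genes on that side. Selenop, the carrier of selenium in plasma, read 9.35, 9.48 and 9.31 in Pjvk-/- samples, against 9.63, 9.58 and 9.62 in Pjvk+/+ samples. Its difference was -0.23 (SE 0.06, adjusted p = 0.252), with every Pjvk-/- value below every Pjvk+/+ value, as in 11.3% of all genes. Selenoo, a mitochondrial selenoprotein, had -0.13 (adjusted p = 0.405), and Dio3, which inactivates thyroid hormone, 0.12 (adjusted p = 0.457). Of 14 genes for making selenocysteine and handling selenium, which share Selenop and Sephs2 with the first list, none was called, 9 were lower and 5 higher, with a median of -0.06. At an unadjusted limma p under 0.05 were 3, all lower (6.66% of all genes), and 2 of them are the Selenop and Sephs2 already counted. Pstk, the kinase that prepares the selenocysteine transfer RNA, read 7.20, 7.06 and 7.15 in Pjvk-/- samples, against 7.42, 7.26 and 7.45 in Pjvk+/+ samples (difference -0.24, SE 0.07, adjusted p = 0.275). Sephs2, which makes the selenium donor, had -0.17 (SE 0.06, adjusted p = 0.318), and Pstk and Sephs2 were each lower in every Pjvk-/- sample, again as in 11.3% of all genes. Lrp2, a receptor that takes up selenoprotein P, had -0.13 (adjusted p = 0.509), and Secisbp2, which binds the element that recodes the stop codon, 0.06 (adjusted p = 0.667).

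Partners of the endoplasmic reticulum enzymes lay close to no difference. Of 15 genes of oxidative protein folding, 10 were lower and 5 higher, with a median of -0.02, and none reached an unadjusted limma p of 0.05. P4hb, the classical protein disulfide isomerase, had 0.00 (SE 0.06). The oxidases that recharge it had -0.08 for Ero1a (adjusted p = 0.558) and -0.07 for Ero1b (adjusted p = 0.815). Prdx4, the peroxiredoxin of the same compartment, had -0.14 (adjusted p = 0.421), Qsox1, a sulfhydryl oxidase, -0.11 (adjusted p = 0.575) and Vkorc1l1, a relative of vitamin K epoxide reductase, 0.07 (adjusted p = 0.604).

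Genes that bear on lipid peroxidation, against which GPX4 acts, were not called either. Of 19 measured, 13 were lower and 6 higher, with a median of -0.04, and 4 had an unadjusted limma p under 0.05, 3 lower (6.66% of all genes) and 1 higher (5.74% of all genes), which is Slc7a11, given above. Tfrc, the transferrin receptor for iron uptake, read 10.87, 10.90 and 10.91 in Pjvk-/- samples, against 11.18, 11.20 and 11.12 in Pjvk+/+ samples, a difference of -0.27 (SE 0.05, adjusted p = 0.168). It was called when genes below the median level were left out (adjusted p = 0.0431) and with an intensity trend (adjusted p = 0.0045). Nfe2l2, which encodes NRF2 and lies on the chromosome of Pjvk, had -0.24 (SE 0.06, adjusted p = 0.241), and Ftl1, the ferritin light chain, -0.19 (SE 0.07, adjusted p = 0.334). Of the other genes named here, Lrp2, Cat and Mllt10 lie on chromosome 2 as well. Acsl4, which loads membranes with oxidizable fatty acids, had -0.10 (adjusted p = 0.506). Other enzymes that remove hydrogen peroxide were lower in 5 of 5 measured genes, against 53.8% of all genes, with none called and a median of -0.14. All 5 are brighter than the median gene, and genes at or above that level had a median of -0.0433. With the Y-linked covariate, Prdx1, Prdx2 and Prdx4 turned to 0.013, 0.011 and 0.002, while Prdx3 and Cat stayed lower. Of the 5, 2 had an unadjusted limma p under 0.05 (Prdx3 and, just under it, Cat), both lower, against 6.66% of all genes. Prdx4, given above, is among them. Prdx3, the mitochondrial peroxiredoxin, had -0.17 (SE 0.07, adjusted p = 0.376) and Cat, the peroxisomal catalase, -0.14 (SE 0.06, adjusted p = 0.403), both with no overlap between the genotypes, as in 11.3% of all genes on the lower side. Prdx1 and Prdx2 had -0.04 each (adjusted p = 0.772 and 0.794).

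**Figure D4:**
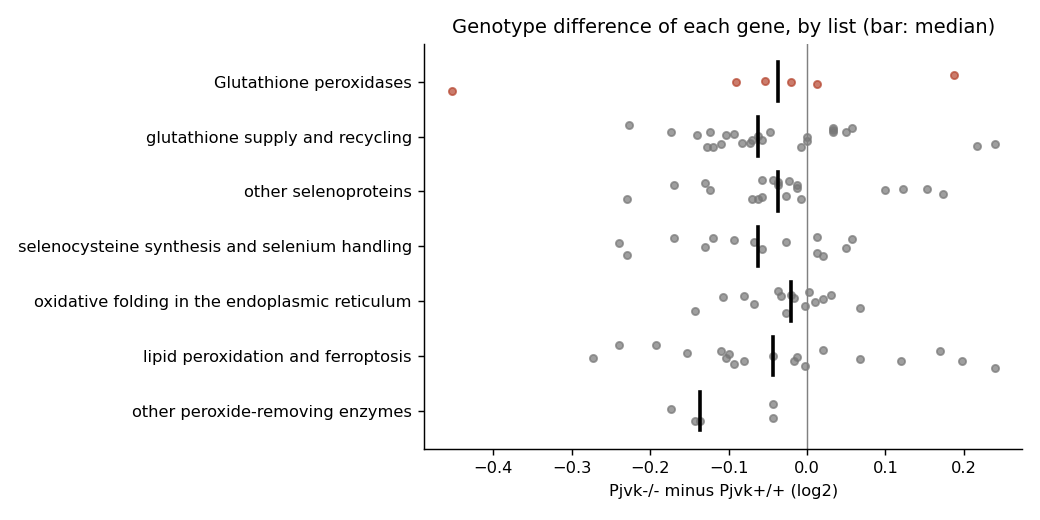
Difference of Pjvk-/- minus Pjvk+/+ samples in log2 signal (horizontal axis) for each measured gene of the 7 lists (vertical axis); each point is 1 gene and the black bar is the list's median. The medians lie between -0.14 and -0.02, and Gpx2 at -0.45 lies farther from 0 than any other gene shown.

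The 2 members whose signals ranged most over the 6 arrays were Gpx2, over 0.75, and Gpx7, over 0.40 log2 units. For each, the genes with the most similar pattern were sought among the brighter 9969 genes (mean not under the median of all genes), by the root mean square difference of deviations from each gene's own mean over the 6 arrays. Closest to Gpx2 was Pdk4, a kinase that restrains the use of pyruvate, at 0.03 log2 units. It read 7.63, 7.97 and 7.54 in Pjvk-/- samples, against 8.36, 8.28 and 7.96 in Pjvk+/+ samples, with the same pair of arrays close together as for Gpx2. Next came the interferon-induced membrane protein gene Ifitm3 at 0.06, the aldehyde dehydrogenase gene Aldh3a1 and the gene of the hair bundle protein clarin-2, Clrn2, at 0.12 each, and Bhlhe41, which encodes a repressor of the circadian clock, also at 0.12. These 5 differed between the genotypes by -0.53 to -0.28, and none was called (adjusted p between 0.138 and 0.30 in limma). Closest to Gpx7 were Prdm16, Hmgn2 and Mllt10, which act on chromatin, at 0.03 each. Pcolce, which helps to mature fibrillar collagens, and Boc, a co-receptor of Hedgehog, followed at 0.04 each. Over 6 arrays and so many genes, close patterns are easy to meet, and these are given as a description.

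**Figure D5:**
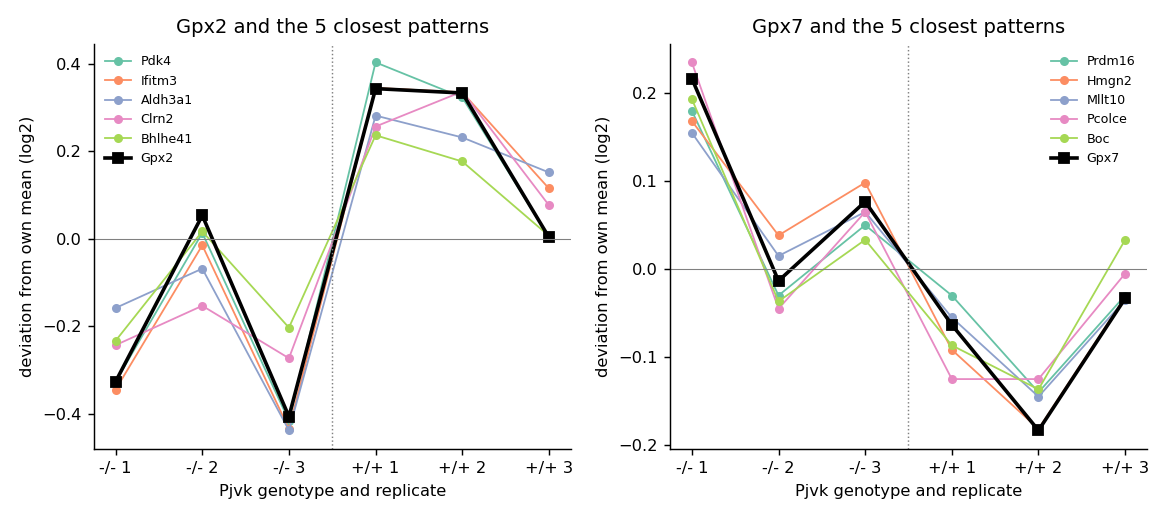
Deviation of log2 signal from each gene's own mean over the 6 arrays (vertical axes) by array (horizontal axes), for Gpx2 at left and Gpx7 at right with the 5 closest genes each; lines only join the points of a gene, and a dotted line parts the Pjvk-/- from the Pjvk+/+ arrays. Gpx2 and Pdk4 differ by 0.03 log2 units on root mean square, and both have replicate 2 of Pjvk-/- and replicate 3 of Pjvk+/+ near their means.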

How the data were processed

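Total RNA of the organ of Corti was extracted with TRIzol and RNeasy columns and labelled from 100 ng for Affymetrix mouse gene ST arrays, per the labels' protocols. The authors deposited log2 values for 6 arrays in 1 table. Affymetrix Expression Console is named in the submitters' processing notes; its version, the summarization, the normalization and the build are not given in the labels or the table. Gene names came from the platform's annotation (21789 with 1 symbol, 1621 with several and 12147 not listed, only the first being used), and 21698 matched a gene table that updated symbols. The probe set with the highest mean stood for its gene. Precision is limited by there being 6 arrays.

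The Pjvk-/- and Pjvk+/+ arrays were fitted in limma 3.58.1 under R 4.3.3 (lmFit and eBayes), with Benjamini-Hochberg adjustment over 19938 genes, and single genes with exact two-sided permutation tests (scipy 1.17.1). The limma step was tested on simulated data for this comparison, with 200 of 19938 genes changed. It recovered 9 of 50 genes changed by 0.25, 35 of 50 changed by 0.5 and 50 of 50 changed by 1 on the log2 scale, with 5 false calls. These counts hold for the simulated data and do not give the chance of a call in the real arrays. There 7 genes were called, and Pjvk at -0.59 and Gpx2 at -0.45 were not. The members and lists were chosen with earlier results of these data known. Always named were the 6 members, Pjvk and a fixed set of partners, with up to 4 members of each list by smallest p and the 5 most similar patterns for the 2 members of widest range. Listed genes with no single-symbol probe set were not analysed here. The alternatives were 2 filters on dim genes, 2 normalizations, 2 ways to treat probe sets, an intensity trend, the Y-linked level (mean of Eif2s3y, Kdm5d and Uty) as a covariate, the replicate block and each array left out.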

Additional observations from a re-analysis of the deposited data

How the results depend on the processing

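No glutathione peroxidase was called under any of the 15 alternatives. Of 89 values of the 6 genes under alternatives, 82 kept their sign and 7 changed it, none of these past 0.043 in size on the log2 scale. The 82 include values that could not change. The filters, the intensity trend, the replicate block and the fit of all probe sets leave every difference as reported. The mean of all probe sets moved only Gpx4, to -0.065. The count of kept signs therefore overstates how far the signs were tested. Gpx3 turned to 0.03 with quantile normalization and 0.018 with the Y-linked covariate, and Gpx4 to 0.021 with that covariate. Quantile normalization also moved Gpx1 from -0.09 to -0.041, Gpx2 from -0.453 to -0.401, Gpx4 from -0.053 to -0.011 and Gpx8 from 0.013 to 0.058. Gpx7 moved the other way, from 0.187 to 0.164. With quantile normalization, 1 of the 6 genes had an unadjusted limma p under 0.05, where the reported fit had 2. That count was 0 with the Y-linked covariate. It was 1 without replicate 1 or replicate 3 of Pjvk-/-, and 1 without replicate 1 or replicate 2 of Pjvk+/+. Where genes under the median level were left out it was 1 of 5, and under the remaining alternatives 2. With 1 array left out, Gpx1 ran from -0.143 to -0.028, Gpx2 from -0.593 to -0.363, Gpx3 from -0.092 to 0.043, Gpx4 from -0.085 to -0.035, Gpx7 from 0.125 to 0.24 and Gpx8 from -0.028 to 0.052. Gpx7 is dimmer than the median gene and has no value where genes under the median level were left out. The adjusted p of Gpx2 ran from 0.139 to 0.966 and that of Gpx7 from 0.289 to 0.923.

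The count of genes called over the whole table, 7, was 20 and 45 when genes under the 25th percentile or the median level were left out, 112 with an intensity trend and robust priors, 1 with the replicate block, 0 with the Y-linked covariate (1087 genes at an unadjusted limma p under 0.05) and 2 to 6 with 1 array left out. The filters and the left-out arrays change the number of genes or arrays tested, and the other causes were not tested. Deviations of same-numbered arrays had correlations of 0.076, 0.019 and -0.009, against -0.106 to 0.093 for arrays of other numbers. With 3 arrays per genotype, this cannot settle whether the samples were paired. Each replicate number has 1 array of each genotype, so the replicate block cannot move a difference. The adjusted p in limma was 0.298 for Gpx2 and 0.385 for Gpx7 under it. With the block, the SE fell from 0.133 to 0.085 for Gpx2 and from 0.075 to 0.063 for Gpx7. For Gpx1 the SE rose from 0.071 to 0.078. Among the other named genes, the Y-linked covariate turned Prdx4 to 0.002, Prdx1 to 0.013, Prdx2 to 0.011 and Gclc to -0.029, and quantile normalization turned Prdx1 to 0.008. With 1 array left out, Gclc ran from -0.002 to 0.073, P4hb from -0.03 to 0.03 and Ero1b from -0.15 to 0.065. Aldh3a1 was called with an intensity trend (-0.44), Clrn2 with that trend and without genes under the median level (-0.45), and Pjvk with that trend (-0.59).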
